A study of Oryza coarctata with 5 samples.

Results

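Plants of Porteresia (Oryza coarctata) submerged in water were compared with plants kept in water as a control, by RNA-sequencing with 1 library of each. The comparison used assembled transcripts with RPKM of at least 1 in either library and RPKM above 0 in all 5 libraries of the series. RPKM is the number of reads per kilobase of transcript, scaled by the read total of the library. This rule left 74237 of the 152367 transcripts listed. They held 95.1% of the summed RPKM in submergence and 95.7% in the control. The other 3 libraries came from plants submerged in 450 mM NaCl, plants in 450 mM NaCl and plants in 700 mM NaCl. All 5 were made from mature plants gathered in the wild, and the labels name no genotype, age, duration of treatment or number of plants per library. The series text speaks of different tissues, and which organs each library holds is not stated there. With 1 library per treatment the spread between plants is unknown, so the difference was not tested. "Higher" and "lower" below describe this pair of libraries by size alone.

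Porteresia is a wild relative of rice from saline tidal soils, where flooding recurs. Water around a shoot slows the exchange of gases, so submerged plant tissue commonly runs short of oxygen and carbon dioxide while ethylene builds up in it. In rice, flooding is known to bring on fermentation enzymes such as alcohol dehydrogenase and pyruvate decarboxylase and to curb photosynthesis. The transcripts carry assembly numbers without gene names, so none of these enzymes could be looked up, and the members are described by their number, length and level.

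Depth was recovered from the steps between low RPKM values. The read totals were about 79000000 in submergence and 56600000 in the control. In the other libraries they were 74900000 for submergence in 450 mM NaCl, 59800000 for 450 mM NaCl and 58400000 for 700 mM NaCl. Intervals given with read ratios are exact 95% intervals (Clopper-Pearson) and cover counting error alone and no variation among plants. In bulk tissue, fewer cells of a type and less RNA per cell cannot be told apart.

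Most transcripts differed little, and the large differences were mostly on the side of lower values under water. The ratio used throughout is log2 of RPKM + 0.5 in submergence over RPKM + 0.5 in control, a scale that understates the differences of low transcripts. Its median over the members was 0.08, with quartiles at −0.48 and 0.56. Of the members, 58040 (78.2%) lay within 2-fold, 7718 (10.4%) were at least 2-fold higher and 8479 (11.4%) at least 2-fold lower. Over all 77196 transcripts with RPKM of at least 1 in either library, before the rule on the other libraries, the shares were 12.1% higher and 11.9% lower. The 1% and 99% points of the ratio lay at −2.53 and 1.96, so the lower tail reached further than the upper one.

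Among the members, that asymmetry widened with the size of the difference. From 4-fold on, 681 members (0.917%) were higher and 1630 (2.2%) lower, against 1.25% and 2.52% of the wider set. From 8-fold on, 61 members were higher and 377 lower. At 16-fold the numbers were 6 and 100, and at 32-fold 1 and 24. Around zero the balance was the other way, with 40114 members (54.0%) above 0 and 34123 below. At 1.5-fold, 17676 members were higher and 15892 lower.

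**Figure D1:**
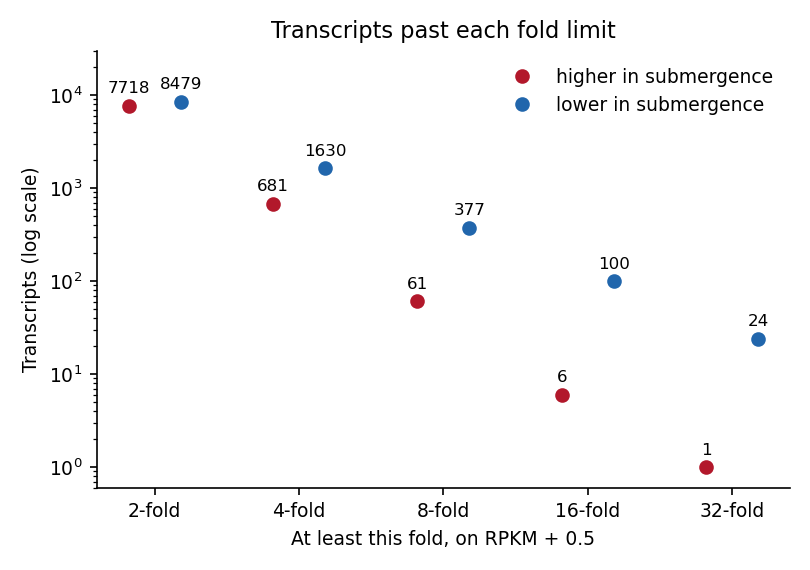
Numbers of transcripts at least 2-, 4-, 8-, 16- and 32-fold higher (red, left of each pair) or lower (blue) in submergence than in the water control, on a log scale. The counts are close at 2-fold (7718 and 8479) and far apart at 16-fold (6 and 100).

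The transcripts left out for a 0 in some library were called more often than those kept, in part by the rule itself. There were 2959 of them, of which 1654 (55.9%) were at least 2-fold higher in submergence and 674 (22.8%) lower. Most of them, 2256, were at 0 at 700 mM NaCl, while 553 were at 0 in submergence and 278 in the control. Restoring them gave 96 transcripts higher and 454 lower at 8-fold, 10 and 120 at 16-fold, and 5 and 30 at 32-fold. The lower side stayed the longer one, but with them the asymmetry no longer widened from 16-fold to 32-fold.

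The share of members called was lowest at middle to high levels and larger at both ends of the range. Level was taken as the mean of log2(RPKM + 0.5) over both libraries. Between levels of 0 and 1 on this scale, the class of 23044 members had 11.1% higher and 14.5% lower. Its median standard error from counting alone was 0.36 on the log2 scale, and the quartiles of the ratio were −0.65 and 0.62. Between 3 and 4, 9.79% of 8331 members were higher and 8.92% lower, with a counting error of 0.09. Between 5 and 6, the shares among 2606 members were 8.52% and 7.87%. The quartiles there were −0.40 and 0.41, while the counting error was 0.03. The spread at that level was therefore many times the error of counting reads, although not separable from differences between plants. The lowest class, below 0, had 282 members, all of which were called, since only a transcript that is near 0 in one library can enter it.

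**Figure D2:**
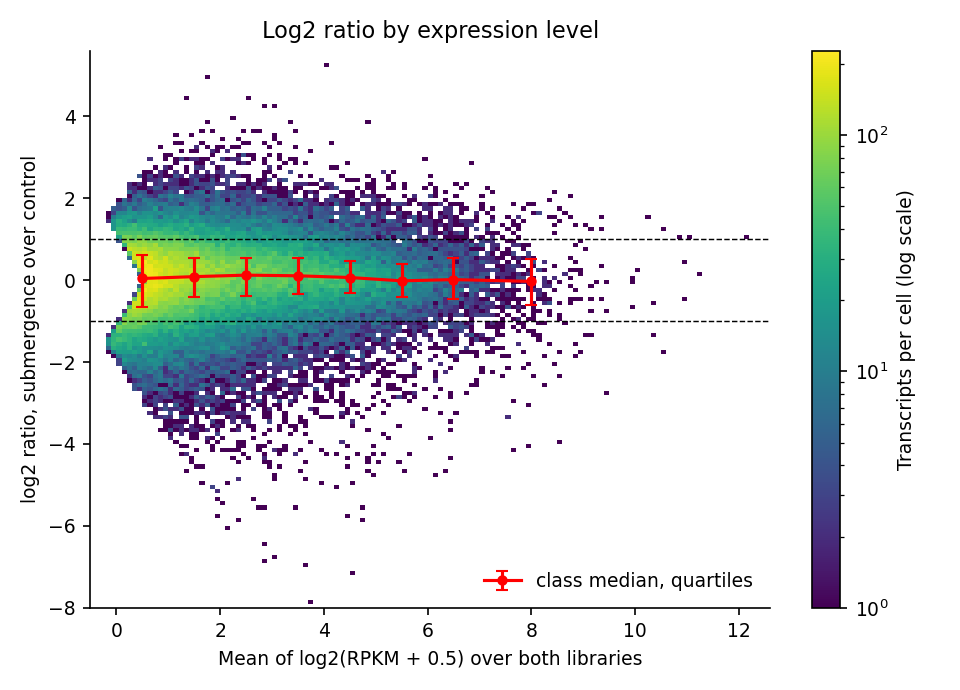
Log2 ratio of submergence over control (vertical) against the mean of log2(RPKM + 0.5) over both libraries (horizontal) for the 74237 members, coloured by the number of transcripts per cell on a log scale. Red points are class medians with quartiles, the last one for all levels above 7, and dashed lines mark 2-fold; the lowest class, below 0, has no red point; the medians drawn lie between −0.03 and 0.12, while single transcripts reach further down than up.

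With level as the mean over both libraries, both directions became more frequent at the top of the range. Among the 482 members with a level above 7, 12.9% were higher and 14.9% lower, and 3.94% were at least 4-fold lower against 1.04% higher. The choice of level decides this balance, and whether both directions become more frequent. With level taken from the other 3 libraries, which the ratio does not use, 564 members lay above 7, of which 5.32% were higher and 32.8% lower, and their median ratio was −0.51. Of those 3 libraries, all from plants in NaCl, only 1 came from submerged plants, which weights the level toward unsubmerged plants. With 1 submerged and 1 unsubmerged library, both in 450 mM NaCl, 570 members lay above 7, with 7.02% higher and 26.5% lower. With level from submergence alone, which favours high values there, 27.0% of 544 were higher and 4.78% lower, and with level from the control alone 5.30% of 585 were higher and 34.5% lower.

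Over all members, the longest transcripts were called least often. Below 300 nt, 12.3% of 14921 members were higher and 12.7% lower. At 2000 nt or more, 8.21% of 9507 were higher and 7.64% lower. Shorter members were also lower in level, with a median RPKM of 2.28 in submergence and 2.20 in control, against 6.10 and 5.60 for the longest class. The median counting error was 0.36 for the shortest and 0.06 for the longest. Among members with a level above 4, where counts were large, 10.1% of 974 members under 300 nt were higher and 10.6% lower. From 300 nt to below 500 nt the shares at that level were 13.6% and 12.1%, and from 500 nt to below 1000 nt they were 13.1% and 10.2%. For 2611 members of 2000 nt or more they were 5.59% and 7.28%. At that level the shortest class was thus not the one called most often. Lengths are those recovered from the RPKM steps, and short assembled transcripts can be fragments of longer ones.

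The highest ratios belonged to transcripts at moderate levels. Among members reaching RPKM 10 in either library, the 12 with the highest ratios had log2 ratios from 3.64 to 5.21. They stood between 11.4 and 107 RPKM in submergence and between 0.0465 and 6.79 RPKM in control. The first, Pc_TC046817 (240 nt), stood at 102 RPKM in submergence, against 2.28 RPKM in control. In plants submerged in 450 mM NaCl it stood at 38.3 RPKM, and in 450 mM and 700 mM NaCl without submergence at 0.906 and 0.927 RPKM. Both submerged libraries thus lay far above the 3 others for this transcript.

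The next, Pc_TC061127 (835 nt), had 18.3 RPKM from 1206 reads in submergence, against 0.106 RPKM from 5 reads in control. Its read ratio was 173, with an interval of 73.9 to 534; the 5 control reads make that interval wide. It had 7.09 RPKM in submergence in 450 mM NaCl, 0.140 in 450 mM and 0.758 in 700 mM NaCl. Pc_TC023972 (839 nt) was better measured, at 36.4 RPKM (2412 reads) in submergence and 1.45 RPKM (69 reads) in control, 25.1-fold higher (19.7 to 32.3). It had 11.3 RPKM in submergence in 450 mM NaCl, against 0.498 in 450 mM NaCl. Pc_TC093595 (882 nt) had 37.6 RPKM in submergence and 2.10 RPKM in control, 17.9-fold higher (14.7 to 22.0), and 15.0 RPKM in submergence in 450 mM NaCl, against 0.569 in 450 mM NaCl. These transcripts were high in both submerged libraries and low in the others.

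Several members of this group were short, against a median length of 651 nt over all members. Shortness was not particular to this group, since the lowest ratios given below belonged to transcripts of 201 to 872 nt. Pc_TC089189 (278 nt) had 26.4 RPKM in submergence and 0.762 RPKM in control, and Pc_TC060489 (201 nt) had 30.6 RPKM and 1.14 RPKM. Pc_TC135473 (275 nt) had 17.7 RPKM in submergence and 0.706 RPKM in control. Pc_TC034615 (309 nt) stood at 21.5 RPKM in submergence and 1.26 RPKM in control, and Pc_TC055969 (273 nt) at 12.5 RPKM and 0.517 RPKM. Pc_TC017215 (378 nt) had 12.5 RPKM in submergence and 0.374 RPKM in control. For 10 of the 12, both submerged libraries were above all 3 unsubmerged ones, against 34.5% of all members. The submergence and control values that picked the 12 enter this count, so a part of it follows from the choice.

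A pair among the 12 did not follow the others. Pc_TC012499 (2511 nt) had 107 RPKM from 21178 reads in submergence and 6.79 RPKM from 965 reads in control, 15.7-fold higher (14.8 to 16.8). It stood almost as high without submergence in 450 mM NaCl, at 89.3 RPKM, and lower in submergence in 450 mM NaCl, at 20.8 RPKM. At 700 mM NaCl it had 0.0409 RPKM from 6 reads. Pc_TC067107 (759 nt) had 11.4 RPKM from 681 reads in submergence and 0.0465 RPKM from 2 reads in control, a read ratio of 244 (67.3 to 2019.9). In the other libraries it was near 0, with 5 reads in submergence in 450 mM NaCl, 9 in 450 mM and 2 in 700 mM NaCl. Its high value rested on 1 library.

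The lowest ratios belonged to transcripts that were well expressed in control and near 0 in submergence. The 12 lowest ratios ran from −7.84 to −5.60, with 0.0350 to 3.19 RPKM in submergence and 28.4 to 276 RPKM in control. Pc_TC094501 (445 nt) had 0.398 RPKM from 14 reads in submergence, against 205 RPKM from 5172 reads in control, 515-fold lower (307 to 943). It had 15.4 RPKM in submergence in 450 mM NaCl, and in 450 mM and 700 mM NaCl 206 and 249 RPKM. Its level in 450 mM NaCl was close to that of the control, and only the submerged libraries were low.

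Pc_TC065510 (872 nt) had 1.50 RPKM (103 reads) in submergence and 276 RPKM (13624 reads) in control, 184-fold lower (152 to 226). It had 20.2 RPKM in submergence in 450 mM NaCl, against 336 in 450 mM NaCl, and 474 RPKM at 700 mM. Pc_TC125462 (632 nt) had 0.601 RPKM in submergence and 136 RPKM in control, 227-fold lower (159 to 337). Submergence in 450 mM NaCl left it at 21.8 RPKM, against 162 RPKM in 450 mM NaCl. Both differences had the same direction in salt and a smaller size.

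Pc_TC037675 (825 nt) had 0.199 RPKM in submergence and 78.6 RPKM in control, 394-fold lower (230.3 to 741). Pc_TC037673 (362 nt), whose assembly number is close to it, had 0.0350 RPKM from 1 read in submergence and 28.4 RPKM from 582 reads in control, a ratio of 812 with an interval of 145 to 32117. The 2 had similar patterns in the other libraries. Pc_TC037675 stood at 5.89 RPKM in submergence in 450 mM NaCl, 88.6 in 450 mM and 174 in 700 mM NaCl, and Pc_TC037673 at 1.48, 32.6 and 52.6 RPKM in the same order. Whether they belong to 1 gene is not given in the files.

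The other 7 of the 12 were of the same kind. Pc_TC025785 (866 nt) had 0.336 RPKM in submergence and 87.1 RPKM in control, and Pc_TC127213 (246 nt) 3.19 RPKM and 209 RPKM. Pc_TC093161 (230 nt) had 2.59 RPKM in submergence and 162 RPKM in control. Pc_TC081193, Pc_TC077562, Pc_TC099476 and Pc_TC077835, of 201 to 266 nt, had 10 reads or fewer in submergence and 539 or more in control. All 12 lay below the 3 unsubmerged libraries in both submerged ones, against 23.9% of all members. This count again includes the 2 libraries by which the 12 were picked. In submergence in 450 mM NaCl against 450 mM NaCl, a contrast that uses neither library of the comparison, their log2 ratios were −4.07 to −2.86. At 700 mM NaCl they stood at 41.6 to 474 RPKM, and 11 of the 12 were above their control value there. This was not particular to the 12. All 8479 lower members had a median of 5.08 RPKM at 700 mM NaCl, against 3.78 RPKM in control. Over all members the medians were 2.45 RPKM and 2.58 RPKM.

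**Figure D3:**
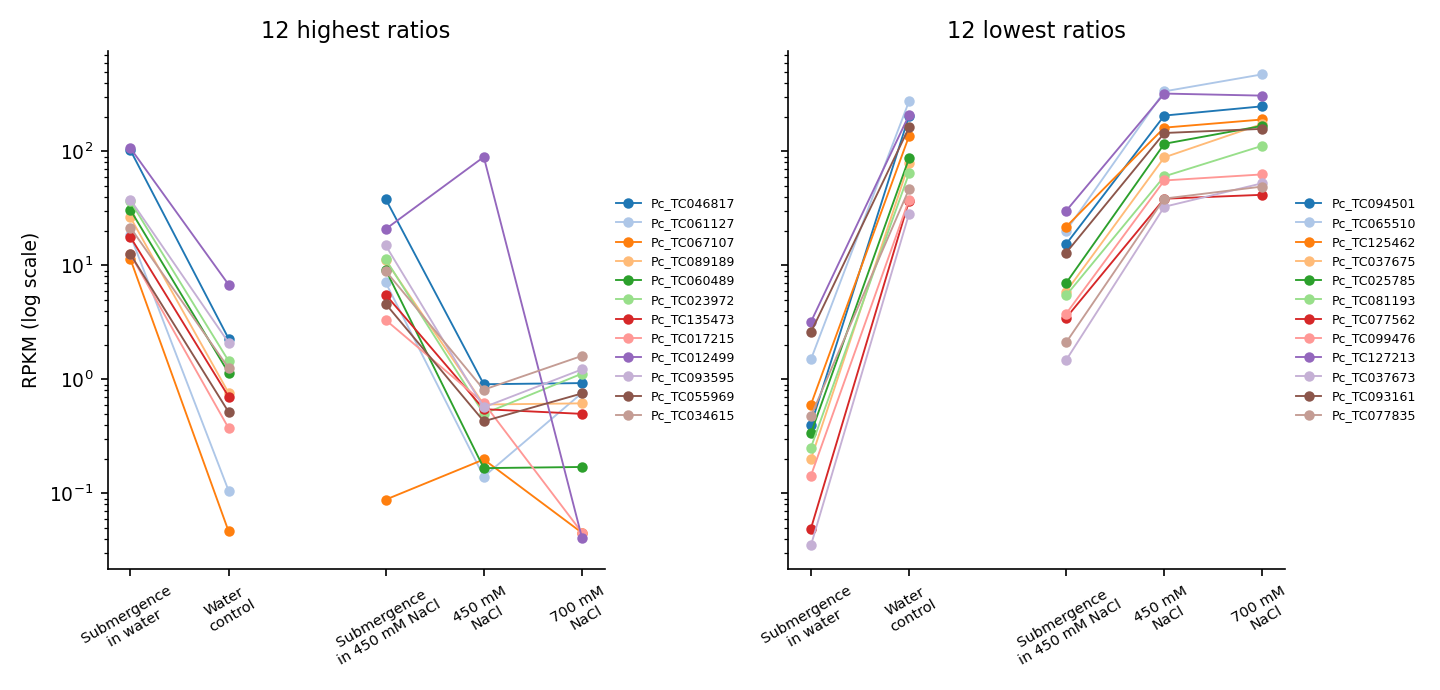
RPKM (log scale) of the 12 transcripts with the highest ratios (left panel) and the 12 with the lowest (right panel), among members reaching RPKM 10, in each of the 5 libraries; lines join the values of 1 transcript. The 12 lowest lie between 0.0350 and 3.19 RPKM in submergence and between 28.4 and 276 RPKM in control, with submergence in 450 mM NaCl in between for all 12.

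The most abundant transcripts differed between the libraries more often than members at large. Of the 100 most abundant members in submergence and the 100 in control, 49 were shared, 49.0% of each list. The union of both lists held 151 members, of which 41 (27.2%) were at least 2-fold higher and 40 (26.5%) at least 2-fold lower. Being chosen for a high value in 1 of the libraries favours such differences. Over all members the shares were 10.4% and 11.4%. From 4-fold on, the union held 5 higher and 19 lower members. Among the 49 shared, 8 were higher and 4 lower, with a median ratio of 0.00.

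The lists took up similar shares of their own library. The 100 most abundant in submergence held 9.42% of the summed RPKM there and 7.02% in control, and the 100 most abundant in control held 7.55% in submergence and 9.44% in control. The 51 members only in the submergence list had a median of 365 RPKM in submergence and 200.2 RPKM in control. Their median was 298.7 RPKM in submergence in 450 mM NaCl, against 161 RPKM in 450 mM NaCl. The 51 only in the control list had a median of 172 RPKM in submergence and 441 RPKM in control. Their median was 304 RPKM in submergence in 450 mM NaCl, against 566 RPKM in 450 mM NaCl. Libraries that entered the choice of these lists only through the rule of RPKM above 0 thus differed in the same directions.

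Pc_TC038631 (881 nt) was the most abundant member in both libraries, at 6699.6 RPKM in submergence and 3138.9 RPKM in control, 2.13-fold higher (2.12 to 2.15). It alone made up 0.891% of the summed RPKM in submergence and 0.420% in control. In the other libraries it stood at 4297.2 RPKM in submergence in 450 mM NaCl, 3271.9 RPKM in 450 mM and 2073.3 RPKM in 700 mM NaCl. Pc_TC001241 (734 nt), ranked 2 in submergence and 9 in control, had 3163.5 RPKM and 1484.5 RPKM. The third, Pc_TC004232 (735 nt), had 2695.4 RPKM in submergence and 1307.7 RPKM in control.

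These top 3 kept nearly fixed proportions in all 5 libraries. Pc_TC001241 stood at 0.472 of Pc_TC038631 in submergence, 0.473 in control, 0.474 in submergence in 450 mM NaCl, 0.480 in 450 mM and 0.472 in 700 mM NaCl. For Pc_TC004232 the fraction was 0.402 in submergence, 0.417 in control, 0.408 in submergence in 450 mM NaCl, 0.421 in 450 mM and 0.422 in 700 mM NaCl. This likeness was noticed in the values. The sources used here do not say how reads matching several transcripts were assigned. The fourth, Pc_TC029576 (539 nt), had 2548.3 RPKM in submergence and 2292.4 RPKM in control, 1.11-fold higher. The fifth, Pc_TC012156 (1344 nt), had 2321.4 RPKM in submergence and 1651.7 RPKM in control, 1.41-fold higher.

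Other members at the top of the control ranked lower in submergence. Pc_TC117680 (498 nt), ranked 19 in submergence and 2 in control, had 784 RPKM in submergence and 2690.8 RPKM in control, 3.43-fold lower (3.39 to 3.48). It had 1067.8 RPKM in submergence in 450 mM NaCl, against 3331.8 RPKM in 450 mM NaCl. Pc_TC000708 (1683 nt) had 818 RPKM in submergence and 2095.7 RPKM in control, 2.56-fold lower. Pc_TC001301 (2366 nt), ranked 3 in control, had 1751.7 RPKM in submergence and 2323.2 RPKM in control, 1.33-fold lower. It reached 3442.3 RPKM at 700 mM NaCl, the highest of its 5 values.

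**Figure D4:**
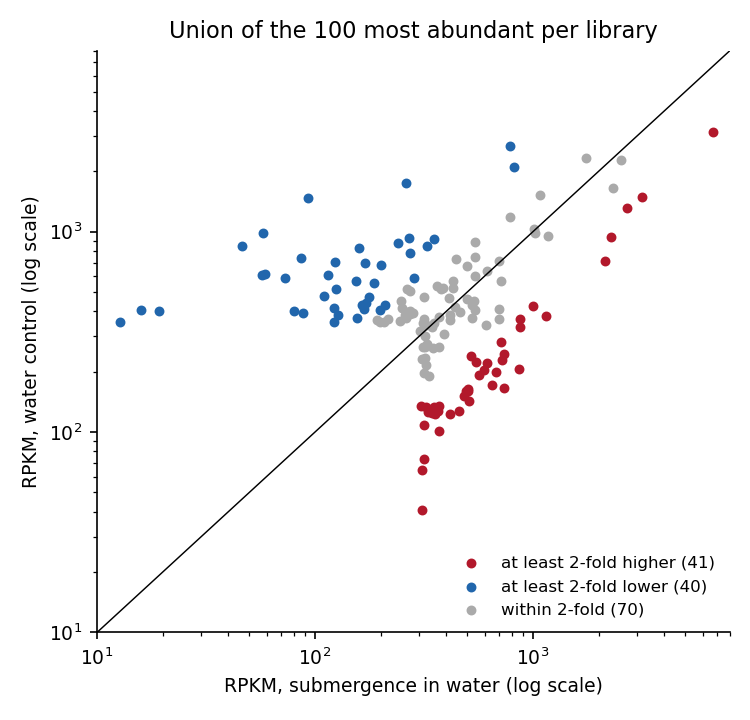
RPKM in submergence (horizontal) against RPKM in the water control (vertical), both on log scales, for the 151 members among the 100 most abundant of either library; the line marks equal values. The 41 red points are at least 2-fold higher in submergence and the 40 blue ones at least 2-fold lower, with 5 red and 19 blue points beyond 4-fold.

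Among these 151 the highest ratios were closer to 0 than the lowest ones. Pc_TC021021 (980 nt) had 309 RPKM in submergence and 41.0 RPKM in control, 7.54-fold higher (7.22 to 7.88). Pc_TC028994 (1486 nt) had 736 RPKM in submergence and 166 RPKM in control, and Pc_TC102778 (473 nt) 868 RPKM and 207 RPKM. Pc_TC028848 (1485 nt) had 317 RPKM in submergence and 73.2 RPKM in control. These 4 were also higher in submergence in 450 mM NaCl than in 450 mM NaCl, with log2 ratios of 1.53 to 1.96. The other of the 5 highest, Pc_TC014070 (2606 nt), had 309 RPKM in submergence and 64.7 RPKM in control. It had 126 RPKM in submergence in 450 mM NaCl, 278 RPKM in 450 mM and 0.0722 RPKM in 700 mM NaCl, a pattern like that of Pc_TC012499.

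The 5 lowest stood at a small part of their control level in submergence. Pc_TC025547 (1475 nt) had 12.7 RPKM from 1484 reads in submergence and 356 RPKM from 29721 reads in control, 27.9-fold lower (26.5 to 29.4). Pc_TC030851 (1579 nt) had 16 RPKM in submergence and 407 RPKM in control, 25.5-fold lower (24.3 to 26.6). Pc_TC091995 (312 nt) had 19.2 RPKM in submergence and 403 RPKM in control. Pc_TC000772 (1031 nt) had 46.3 RPKM in submergence and 846 RPKM in control. Pc_TC004117 (1390 nt), ranked 1937 in submergence and 14 in control, had 57.7 RPKM in submergence and 983 RPKM in control, 17.0-fold lower (16.6 to 17.5). All 5 were also lower in submergence in 450 mM NaCl than in 450 mM NaCl, by log2 ratios of −3.08 to −1.67.

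Called members made up sizeable parts of the transcript pool. The 7718 higher ones held 17.8% of the summed RPKM in submergence and 6.32% in control. The 8479 lower ones held 5.14% in submergence and 18.5% in control. These shares follow from how the members were called. The other libraries took part only through the rule of RPKM above 0 in every library. In submergence in 450 mM NaCl the higher members held 10.8%, against 5.31% in 450 mM NaCl, and the lower members 10.7%, against 21.4%. At 700 mM NaCl the higher members held 4.07% and the lower members 24.3%.

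**Figure D5:**
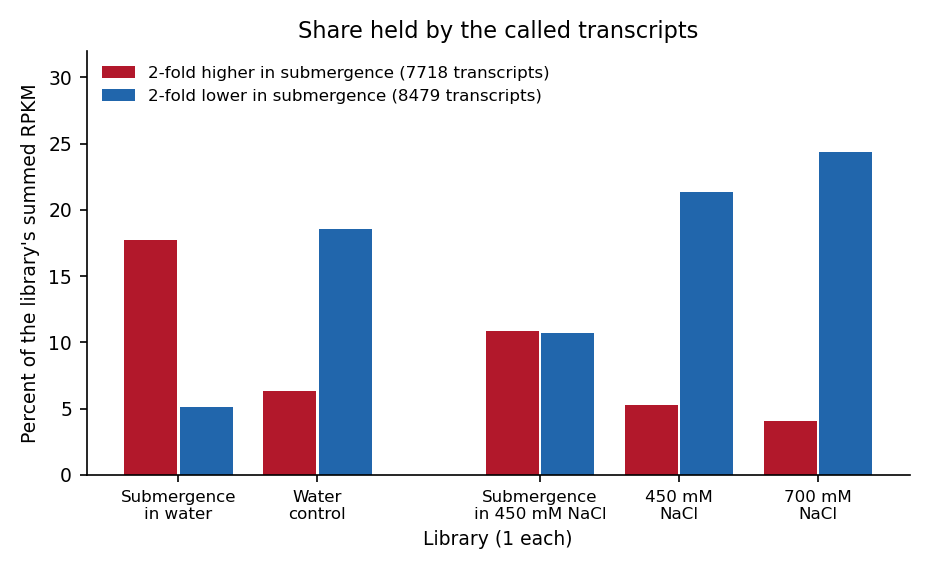
Percent of each library's summed RPKM held by the 7718 members at least 2-fold higher in submergence (red) and the 8479 at least 2-fold lower (blue). The first pair of libraries was used to call them; in submergence in 450 mM NaCl the shares are 10.8% and 10.7%, against 5.31% and 21.4% in 450 mM NaCl.

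Gains and losses were spread over many transcripts. Summed over members that gained, the shift was 22.2 percentage points of the RPKM pool, and over those that lost it was 22.9. It took 1426 members to make up 50% of the gain and 1003 to make up 50% of the loss. The 10 largest supplied 7.52% of the gain and 6.10% of the loss. Pc_TC038631 was the largest gain, at 0.471 points, and Pc_TC117680 the largest loss, at 0.256 points.

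Higher members were more often low in control than members at large, which the call itself favours. Their median was 4.34 RPKM in submergence and 1.26 RPKM in control, and 3348 of them (43.4%) were below RPKM 1 in control, against 13.4% of all members. Lower members had a median of 0.87 RPKM in submergence and 3.78 RPKM in control, and 4586 (54.1%) were below RPKM 1 in submergence, against 13.6% of all members. Their medians at 700 mM NaCl were 0.95 RPKM for the higher and 5.08 RPKM for the lower members. The median length was 554 nt in both sets, against 680.0 nt for members within 2-fold.

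The libraries under salt gave values that the calls did not use, apart from the rule of RPKM above 0 in every library. In submergence in 450 mM NaCl against 450 mM NaCl, 3162 of the 7718 higher members (41.0%) were at least 2-fold higher as well and 53 were lower. Over all members, 7.16% were higher and 5.68% lower in that contrast. Of the 8479 lower members, 3412 (40.2%) were lower as well and 36 higher. The median log2 ratio in salt was 0.89 for the higher and −0.85 for the lower members, against 0.14 over all members. At 4-fold, 500 of 681 higher members (73.4%) and 1287 of 1630 lower members (79.0%) passed 2-fold in salt in the same direction.

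Both submerged libraries stood above all 3 unsubmerged ones for 6757 of the higher members (87.5%), against 34.5% of all members. They stood below all 3 for 7249 of the lower members (85.5%), against 23.9% of all members. In submergence in 450 mM NaCl, 7037 higher members (91.2%) and 7150 lower members (84.3%) lay between their submergence and control values, against 56.5% of all members. All these counts use the compared libraries themselves, so a part of each follows from the call.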

How the data were processed

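RNA extracted with TRI reagent was made into Illumina mRNA libraries, per the labels' protocols. The deposited values are RPKM per assembled transcript, which the authors calculated after filtering reads with NGS QC Toolkit and mapping them to Porteresia transcripts, per the series text. The sources used here do not give the mapping program, versions, assembly or treatment of reads that match near-identical transcripts, so single transcripts of such copies are uncertain.

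RPKM is a whole number of reads times a unit set by length and read total. Totals, lengths (at least 200 nt) and reads were solved from these steps for 152263 transcripts, 100% of those above 0, with a tolerance of 0.005 reads. The solved reads summed to 99.1% of the totals. Totals are approximate, and the smallest solution was taken for each transcript, so some reads and lengths may be smaller than the true ones. Reads and lengths served for intervals, counting errors, length classes and 1 reordering of the most abundant. The solving of lengths and the calling by size were tested on data simulated with the solved lengths and totals. That test cannot show whether lengths are too small or totals wrong, since both were put in.

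Python 3.11.15, pandas 2.3.3, scipy 1.17.1 and numba 0.67.0 were used. Each group has 1 library, so no test was made. Alternatives were pseudocounts of 0.1 and 1, other filters and scalings, intervals of read ratios, and other definitions of level and of the most abundant. Another 3 were added after seeing the data: level from both libraries in 450 mM NaCl, and leaving out each of 2 sets nearly absent at 700 mM NaCl. Named transcripts are the 12 highest and 12 lowest ratios among members reaching RPKM 10, the 5 most abundant of each library, and the 5 highest and 5 lowest ratios among the 100 most abundant of either. The members, limits and this rule were chosen with earlier results of these data known. Gene lists for flooding could not be applied without gene names, and no transcript sequences were used here.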

Additional observations from a re-analysis of the deposited data

Results flagged for a closer look

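The results here are members whose submergence ratios pointed in opposite directions without and with salt; each ratio compares 1 library with 1 library and the difference was not tested. Here the salt ratio is submergence in 450 mM NaCl over 450 mM NaCl. Among the 74237 members, 53 were at least 2-fold higher in submergence than in control and at least 2-fold lower by the salt ratio. The reverse held for 36. The 53 were 0.687% of the 7718 higher members, and the 36 were 0.425% of the 8479 lower ones. Over all members, 5.68% were lower and 7.16% higher by the salt ratio, so opposite directions were rarer here than at large. Apart from 700 mM NaCl, the medians below follow in part from how the sets were picked. The 53 had median values of 5.13 RPKM in submergence and 1.50 RPKM in control, and of 1.28 RPKM in submergence in 450 mM NaCl and 4.55 RPKM in 450 mM NaCl. Their median at 700 mM NaCl was 0.0762 RPKM. The 36 had medians of 0.567 RPKM in submergence and 2.81 RPKM in control, and of 2.74 RPKM in submergence in 450 mM NaCl and 0.836 RPKM in 450 mM NaCl.

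Of the 53, 17 reached RPKM 10 in submergence or control, and none of the 36 did. In 13 of the 17, the value at 700 mM NaCl was under 5% of the lowest of the 4 other libraries. Pc_TC012499 and Pc_TC014070, described above among the highest ratios, are 2 of these 13.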

How the results depend on the processing

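Counts depended on the pseudocount and the filter, and the excess of lower members at 4-fold and beyond was present in all alternatives run. With a pseudocount of 1, 5015 members were 2-fold higher, and 343 and 976 were 4-fold higher and lower. With a pseudocount of 0.1 the 4-fold counts were 1936 and 3529. Requiring RPKM 5 left 3496 higher and 3523 lower at 2-fold. Median-of-ratios scaling (log2 factor 0.08 for submergence relative to control) moved the higher share of 2-fold calls from 47.7% to 41.5%. All 7718 and 8479 calls had read-ratio intervals that exclude 1, of which 5281 and 6625 lay wholly beyond 2-fold. At these read totals, the limits on RPKM and fold leave little room for an interval that includes 1. That part is therefore no separate support for the calls. Without the 59 members that had 1 read at 700 mM NaCl, against a sum of 100 or more in the rest, there were 7676 higher and 8477 lower.

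Shares by level moved with the definition of level. In the class from 0 to 1, with level from the other 3 libraries, 12.5% were higher and 8.09% lower; from control alone 11.7% and 6.59%; from submergence alone 4.99% and 12.8%; from both libraries in 450 mM NaCl 12% and 10.1%. Above 7 the same pairs were 5.32% and 32.8%, 5.30% and 34.5%, 27.0% and 4.78%, and 7.02% and 26.5%. Of the 1000 most abundant, 62.9% were shared and 16% of the union was higher; of the union of the 10 most abundant, 40.0% was higher. Ordering by reads in place of RPKM gave 51.0% shared among the 100. A pseudocount cannot change the direction of a ratio. The scaling factor of 0.08 was smaller than the named log2 ratio closest to equality, 0.15 for Pc_TC029576. The directions of the named transcripts were thus fixed in advance under these alternatives. Pc_TC004232 fell under 2-fold, at a log2 ratio of 0.96, after median-of-ratios scaling.

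No paired analysis was possible because each group has 1 library. Depth limits the ratios of transcripts with few reads in 1 library, and the missing replicates limit all of them.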

Other observations

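In 38 members the value at 700 mM NaCl was under 5% of the lowest of the 4 other libraries, a limit set after seeing the data. The submergence and control values are 2 of those 4, so the set was not chosen independently of them. Of the 38, 31 were at least 2-fold higher in submergence than in control and 0 were at least 2-fold lower, against 10.4% and 11.4% of all members, with a median log2 ratio of 1.46 (quartiles 1.17 and 1.71). Together the 38 held 0.167% of the summed RPKM in submergence, 0.0507% in control, 0.0646% in submergence in 450 mM NaCl, 0.152% in 450 mM NaCl and 0.000243% in 700 mM NaCl. Without them the counts at 8-fold were 60 higher and 377 lower.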
